A study of Mus musculus with 9 samples.

Results

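Gene expression in pulmonary lymphatic endothelial cells (PLECs) of the fetal mouse lung was compared between embryonic days E17.5 and E16.5. The comparison takes in every gene whose signal was above the median of its array on at least 1 of the 6 arrays of these days, with no choice by function or by change. Of the 25206 genes on the array, 13741 met this rule and 11465 did not. Of the 13741, 12840 passed on arrays of both days, 414 passed only on E16.5 arrays and 487 only on E17.5 arrays.

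PLECs line the lymphatic vessels of the lung, which drain fluid and carry immune cells, and they are needed to clear liquid from the lung as breathing begins. In the last days of gestation the lung passes from growth of its tissue toward readiness for air, and endothelial cells divide less as a vessel bed matures. A cell that enters S phase loads the MCM helicase onto replication origins, joins it with Cdc45 and the GINS complex, primes DNA with primase and copies it with polymerases held by the PCNA clamp, and it then makes mitotic cyclins and kinetochore proteins to divide. Type I interferon signals through factors that include Stat2 and Irf9 to switch on a shared set of antiviral and antigen presentation genes.

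The series holds 9 samples of C57BL/6NCrl mice, each hybridised to 1 Mouse Gene 2.0 ST array, with 3 samples per day for E16.5, for E17.5 and for E18.5. No genotype or treatment differed between the days. Lungs of 2 litters, 10 to 21 per pool, were combined for each sample, and living cells positive for CD31, Vegfr3, Lyve1 and Pdpn and negative for CD45 and Epcam were sorted, so each p-value measures the spread between pooled samples and not between single fetuses. Values are log2 expression, a difference of 1 is a 2-fold change, and values of 3 samples are given in the order of replicates 1, 2 and 3. E18.5 values are set beside the others for reference and entered the fit only through the shared estimate of spread. Array values do not rank different genes against each other, since each probe set has its own response.

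The 9 arrays had medians between 3.79 and 3.91, and a gene near or under this level is close to background. Over the tested genes, samples of the same day correlated at r = 0.971 to 0.9778 for E16.5, 0.9688 to 0.9834 for E17.5 and 0.9596 to 0.9713 for E18.5. The first principal component of the 6 arrays held 33.1% of the variance. The E16.5 samples lay at -15.3, -88.8 and -48.3 on it and the E17.5 samples at 4.47, 99.8 and 48.2, so replicate 2 was the farthest out on each day. The genes of the sort were present on all 6 arrays. Pecam1, which encodes CD31, measured 11.17 ± 0.17 at E16.5 and 11.31 ± 0.13 at E17.5 (SD, n = 3 here and below). Lyve1, the hyaluronan receptor of lymphatic endothelium, measured 10.78 ± 0.38 and 10.97 ± 0.36, and Flt4, the Vegfr3 gene, 8.22 ± 0.14 and 8.52 ± 0.15. Prox1, the transcription factor that specifies lymphatic fate, measured 5.22 ± 0.20 and 4.90 ± 0.69, with E17.5 replicate 2 lowest at 4.11. Ptprc, which encodes CD45, was under the median on all 6 arrays, between 2.16 and 2.87. Emcn, a marker of venous and capillary blood endothelium, was well above the array medians on both days, at 10.74 ± 0.24 and 10.70 ± 0.28. By qRT-PCR the study reported less Emcn in sorted E18.5 PLECs than in the fraction positive for CD31 and negative for Vegfr3. Epcam was above the median on all 6 arrays and is described with the epithelial genes below.

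Between E16.5 and E17.5, 22 genes fell and 0 rose at an FDR q under 0.05 in limma's moderated test. These are 0.16% and 0% of the genes tested. The 22 genes belonged mainly to DNA replication and cell division, with a smaller number in sterol, serine and pterin metabolism. They fell by 0.77 to 1.33 on the log2 scale, which is 1.71-fold to 2.51-fold, with standard errors (SE) between 0.10 and 0.20 and q values between 0.0153 and 0.0496. For all 22, every E17.5 sample was below every E16.5 sample. At an unadjusted p under 0.05, 756 genes were higher (5.5%) and 1305 lower (9.5%), and the samples of both days did not overlap for 1122 higher genes (8.17%) and 1676 lower genes (12.2%). The genes at p under 0.05 before adjustment were thus 36.7% higher ones, but this split moved with the scaling. It was 22.7% with each array centred on its median and 48.3% after a further quantile normalization of all genes on the array. The median difference over all tested genes was -0.03, and the median SE was 0.16. In bulk samples, fewer cells of a kind and less RNA per cell cannot be told apart. Genes among the 15 largest falls are named by rule, and the other 7 (Ska2, Mcm3, Cenph, Pole2, Mcm6, Bzw2 and Lrrc40) after their values were seen. The calls rest on all 6 samples, as between 0 and 1 of the 22 remained called when any single E16.5 or E17.5 sample was left out, whereas all 22 stayed lower in each of these fits.

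**Figure D1:**
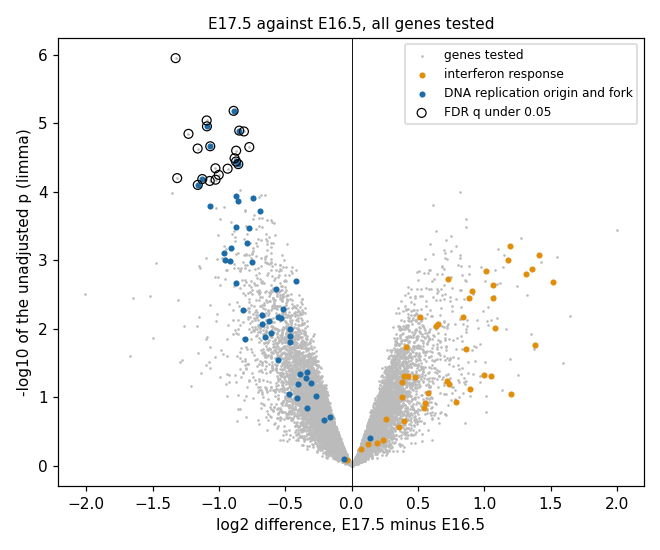
Each point is 1 of the 13741 tested genes, with the log2 difference E17.5 minus E16.5 on the x axis and -log10 of the unadjusted p on the y axis, colored for the interferon response and DNA replication lists and circled for the 22 called genes. The replication genes lie almost wholly to the left, with a median of -0.68, the interferon genes to the right, with a median of 0.72, and every circled gene lies to the left.

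Genes that start and run the replication fork were lower at E17.5 as a group. All 51 genes of a list of origin and fork proteins were tested, 8 of them fell, 0 rose, and 50 of 51 had a negative difference. Their median difference was -0.68 against -0.03 over all genes, 40 of 51 were lower at p under 0.05 before adjustment, and 42 had samples that did not overlap, against the 9.5% and 12.2% of all genes given above. Some members, such as Mcm5, Prim1 and Rfc4, had been reported by the study as lower at E18.5 than on these same E16.5 arrays, so the list is not independent of the E16.5 values. The summed linear signal of the list was 6992 to 7667 in the E16.5 samples, 4622 to 4924 in the E17.5 samples and 2951 to 3575 in the E18.5 samples.

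The MCM2-7 helicase unwinds DNA at the fork and is loaded at origins in G1. Mcm6 measured 8.27, 8.26 and 8.26 at E16.5 and 7.45, 7.41 and 7.39 at E17.5, and fell by 0.85 (SE 0.11, q = 0.0279). Mcm3 measured 7.52, 7.59 and 7.61 at E16.5 and 6.71, 6.71 and 6.69 at E17.5, and fell by 0.87 (SE 0.12, q = 0.0381). In both genes the spread within each day was a small fraction of the step between the days. Mcm3 had the identical value of 6.7063 in E17.5 replicates 1 and 2. Such ties, also present for Hmgcs1 at E18.5, may understate the spread between samples. The other members of the complex, given in full to complete it and named after their values were seen, had differences of -0.79 for Mcm2 (q = 0.0968), -0.91 for Mcm4 (q = 0.103), -0.82 for Mcm5 (q = 0.17) and -0.86 for Mcm7 (q = 0.0611), of like size but not past the threshold. The 6 genes did not overlap between the days. At E18.5 Mcm6 stood at 6.61 ± 0.14 and Mcm3 at 5.77 ± 0.22.

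GINS joins the helicase to form its active state, and its members did not move alike. Gins1 measured 4.99 to 5.08 at E16.5 and 3.87, 3.87 and 3.97 at E17.5, and fell by 1.12 (SE 0.17, q = 0.0454). The E17.5 values of Gins1 lie at the array median, so the size of its fall is uncertain. Gins2 and Gins4 had differences of -0.80 (q = 0.22) and -0.47 (q = 0.226) without overlap, whereas Gins3 had -0.06 (95% interval -0.58 to 0.46) with overlapping samples. Cdc45, the third component of the active helicase, measured 6.07 ± 0.07 and 5.20 ± 0.03 (difference -0.87, q = 0.0829). Cdt1, which loads the helicase, measured 6.72 ± 0.14 and 5.95 ± 0.26 (difference -0.77, q = 0.0845). The last 5 genes were named after their values were seen.

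Primase lays the RNA primers for both strands, and both of its subunits fell. Prim1, the catalytic subunit, measured 6.66, 6.86 and 6.74 at E16.5 and 5.84, 5.50 and 5.44 at E17.5 (fall of 1.16, SE 0.18, q = 0.0496). Prim2, the large subunit, measured 7.53, 7.47 and 7.48 at E16.5 and 6.62, 6.59 and 6.61 at E17.5 (fall of 0.89, SE 0.10, q = 0.0279). The polymerase alpha subunits that form a complex with primase, Pola1 and Pola2, had differences of -0.75 (q = 0.106) and -0.42 (q = 0.123). Pole2, the second subunit of the leading strand polymerase epsilon, measured 5.75, 5.84 and 5.65 at E16.5 and 4.97, 4.97 and 4.74 at E17.5, and fell by 0.85 (SE 0.12, q = 0.0387). The catalytic subunit Pole had a difference of -0.96 (q = 0.104). Pola1, Pola2 and Pole were named after their values were seen, and none overlapped between the days.

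Replication factor C loads the PCNA clamp, and 1 of its 5 subunits passed the test. Rfc4 measured 6.68, 6.30 and 6.41 at E16.5 and 5.42, 5.40 and 5.37 at E17.5, and fell by 1.07 (SE 0.14, q = 0.0313). The remaining subunits, named to complete the complex, had differences of -0.21 for Rfc1, -0.55 for Rfc2, -0.48 for Rfc3 and -0.27 for Rfc5, and Rfc1 and Rfc5 overlapped between the days. Pcna itself measured 11.02 ± 0.16 and 10.56 ± 0.20 (difference -0.46, q = 0.216). Pclaf, a PCNA-binding protein that was not on the list, measured 7.35, 7.37 and 7.35 at E16.5 and 6.31, 6.34 and 6.22 at E17.5, and fell by 1.07 (SE 0.16, q = 0.0454). Dtl, the substrate receptor of the ubiquitin ligase that destroys Cdt1 at PCNA, measured 6.33, 6.67 and 6.37 at E16.5 and 5.48, 5.20 and 5.42 at E17.5, and fell by 1.09 (SE 0.13, q = 0.0279). Among further fork genes picked after seeing their values, Lig1, the ligase that seals Okazaki fragments, had -0.74 (q = 0.0557), Rpa1, the single-strand binding protein, had -0.87 (q = 0.0557) and the chromatin remodeler Hells had -1.06 (q = 0.0669). The 1 member of the list with a positive difference was Timeless, a fork protection protein, at 5.78 ± 0.14 and 5.91 ± 0.15, with overlapping samples.

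**Figure D2:**
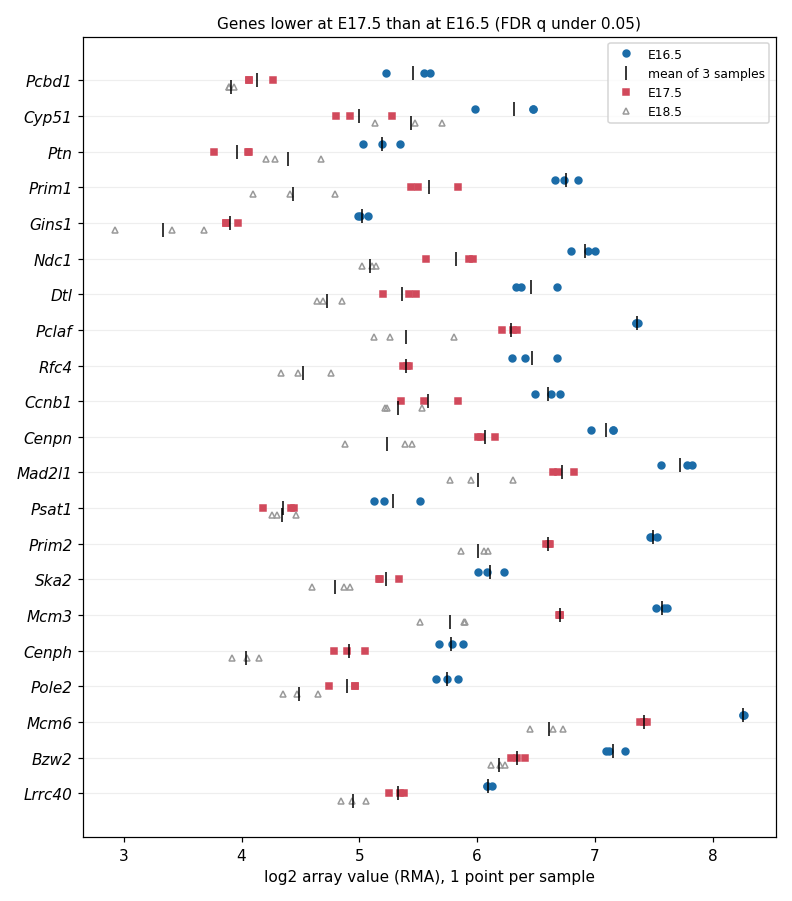
Log2 expression of 21 of the 22 genes called lower, 1 row per gene, with 1 point per sample of each day (circles E16.5, squares E17.5, open triangles E18.5, n = 3 per day) and a bar at the mean. In every row the E17.5 points lie below all E16.5 points, and the E18.5 points of Mcm6, Mcm3 and Prim1 lie lower again, whereas those of Cyp51, with a mean of 5.44, do not.

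Promoters of called genes were read from RefSeq (build GRCm38.p6) to show the letters that cell cycle promoters are known for: CCAAT, the box bound by NF-Y, TTTGGCGC, a common form of the E2F site, TTTCCCGC and TTTCGCGC, its other forms, and TTTGAA, the core of the CHR element of mitotic genes. Each was searched on both strands in the 250 bases before a start. The table matched 19 of the 22 called genes, with 20 promoters. CCAAT stood in 12 of these 20 (60%), in 55.8% of 52 promoters of replication genes and in 74.5% of 47 promoters of mitosis genes, against 34.8% of 12734 promoters of tested genes and 33.8% of all 32851 promoters. TTTGGCGC stood in 2 of the 20 (10%) against 0.746% for tested genes and 0.417% of all, TTTCGCGC in 1 (5%) against 0.55% and 0.256%, and TTTCCCGC in 0 against 1.69% and 0.895%. TTTGAA stood in 2 of the 20 (10%), close to the 10.5% for tested genes, against 16% of all, and in 40.4% for the mitosis list. In the MHC class I list, which had a positive median difference, CCAAT stood in 64.7% of 17 promoters and TTTGGCGC in 2 (11.8%). CCAAT stood in 64.3% of 28 promoters of the cholesterol list and 25.6% of 43 of the interferon list, and TTTGGCGC in 0 of both. These letters were thus not confined to cell cycle genes or to genes that fell. A match is a description of the letters and not a binding site. The promoters of Mcm6 (chr1:128359706-128359955, minus strand), Dtl (chr1:191575545-191575794, minus strand), Ccnb1 (chr13:100786487-100786736, minus strand) and Cenpn (chr8:116921490-116921739, plus strand) are shown because they carry these letters, with each match in capitals, read 5' to 3' and ending at the base before the start. In Mcm6 the first run of capitals holds a TTTGGCGC that overlaps a TTTCGCGC on the other strand, and in Cenpn the last holds TTTGAA on the other strand.
Mcm6: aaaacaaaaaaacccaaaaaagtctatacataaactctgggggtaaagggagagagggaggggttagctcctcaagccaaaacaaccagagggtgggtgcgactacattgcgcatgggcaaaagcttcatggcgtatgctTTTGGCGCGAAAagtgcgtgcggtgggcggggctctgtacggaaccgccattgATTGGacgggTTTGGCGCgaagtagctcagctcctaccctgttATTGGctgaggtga
Dtl: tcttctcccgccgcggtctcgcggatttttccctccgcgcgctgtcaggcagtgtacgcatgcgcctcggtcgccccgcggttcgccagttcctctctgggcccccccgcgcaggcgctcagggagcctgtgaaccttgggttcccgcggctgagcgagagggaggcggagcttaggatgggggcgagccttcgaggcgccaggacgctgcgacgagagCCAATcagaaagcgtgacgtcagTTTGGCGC
Ccnb1: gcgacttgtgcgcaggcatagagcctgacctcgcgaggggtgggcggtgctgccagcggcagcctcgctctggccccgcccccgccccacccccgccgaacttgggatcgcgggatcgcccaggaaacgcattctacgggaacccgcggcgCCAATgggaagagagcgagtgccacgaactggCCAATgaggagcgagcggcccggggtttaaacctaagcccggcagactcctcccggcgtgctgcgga
Cenpn: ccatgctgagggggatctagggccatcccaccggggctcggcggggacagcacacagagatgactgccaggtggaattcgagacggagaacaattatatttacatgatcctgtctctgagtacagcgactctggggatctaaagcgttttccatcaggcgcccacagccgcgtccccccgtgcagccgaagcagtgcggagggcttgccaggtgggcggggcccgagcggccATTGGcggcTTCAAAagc

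Enzymes that supply deoxynucleotides were lower alongside the fork genes. Some of them, such as Rrm2, had been reported by the study as lower at E18.5 than on these same E16.5 arrays. Their list is thus not independent of the E16.5 values. All 25 genes of the list of deoxynucleotide and folate enzymes had negative differences, with a median of -0.54, 19 of them at p under 0.05 before adjustment, and 1 fell at the FDR threshold. Of list members named after their values were seen, Tyms, thymidylate synthase, measured 7.52 ± 0.18 and 6.63 ± 0.01 (difference -0.89, q = 0.169). Rrm1 and Rrm2, the ribonucleotide reductase subunits, had differences of -0.80 (q = 0.0693) and -0.85 (q = 0.104). Mthfd1, a folate interconverting enzyme, and Gart, of purine synthesis, had -0.84 (q = 0.0556) and -0.74 (q = 0.0779), and Mthfd1 had the smallest q of the lower genes that were not called. Impdh2, of guanine nucleotide synthesis, overlapped between the days, at 8.05 ± 0.21 and 7.95 ± 0.10.

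Most mitotic genes had lower means at E17.5 too. Some of them, such as Bub1 and Mki67, had been reported by the study as lower at E18.5 than on these same E16.5 arrays. The mitosis list is thus not independent of the E16.5 values. Of 51 list members 2 fell, 0 rose, 34 were lower at p under 0.05 before adjustment and 31 did not overlap, with a median difference of -0.54. Ccnb1, the mitotic cyclin that activates Cdk1, measured 6.49, 6.70 and 6.63 at E16.5 and 5.84, 5.36 and 5.55 at E17.5, and fell by 1.03 (SE 0.15, q = 0.0395). Mad2l1, which holds the spindle checkpoint, measured 7.56, 7.78 and 7.82 at E16.5 and 6.83, 6.65 and 6.69 at E17.5, and fell by 1.00 (SE 0.15, q = 0.0454). In both genes every E17.5 sample was below every E16.5 sample.

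Called genes outside the list also act at the kinetochore or, for Ndc1, at the nuclear pore. Cenpn, a protein that reads the centromeric nucleosome, measured 7.15, 7.16 and 6.96 at E16.5 and 6.15, 6.04 and 6.01 at E17.5, and fell by 1.02 (SE 0.16, q = 0.0454). Cenph, of the same inner kinetochore network, measured 5.68, 5.78 and 5.88 at E16.5 and 5.05, 4.79 and 4.90 at E17.5, and fell by 0.87 (SE 0.12, q = 0.0313). Ska2, which tethers kinetochores to microtubules, measured 6.08, 6.01 and 6.23 at E16.5 and 5.17, 5.33 and 5.18 at E17.5, and fell by 0.88 (SE 0.12, q = 0.037). Ndc1, a transmembrane nucleoporin that anchors nuclear pores, measured at least 6.80 in every E16.5 sample and 5.97, 5.56 and 5.93 at E17.5, and fell by 1.09 (SE 0.13, q = 0.0279). All 4 were lower in every E17.5 sample than in any E16.5 sample.

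Several widely used division markers, named after their values were seen, did not pass the test, and some overlapped between the days. Mki67, the source of the Ki-67 antigen, measured 8.60, 9.68 and 8.83 at E16.5 and 8.85, 8.52 and 8.34 at E17.5 (difference -0.47, 95% interval -1.04 to 0.11). E16.5 replicate 2 was the highest of the 6 and the other E16.5 samples overlapped with E17.5. Cdk1 measured 8.44, 7.82 and 8.14 at E16.5 and 7.65, 8.02 and 7.17 at E17.5 (difference -0.52, 95% interval -1.09 to 0.05), again with overlap. Cenpf and Cks2 had differences of 0.01 and 0.04, with intervals of -0.44 to 0.47 and -0.56 to 0.65. Top2a, Bub1 and Ccna2 did not overlap, at -0.65, -0.81 and -0.66, but had q values of 0.228, 0.129 and 0.167. Of the 51 mitosis genes, E17.5 replicate 3 was the lowest E17.5 sample in 32 and E16.5 replicate 2 the highest E16.5 sample in 33.

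Regulators of entry into S phase gave no calls. Of 31 tested cyclins, kinases and E2f factors of the G1/S transition 14 were lower and 0 higher at p under 0.05 before adjustment, with a median of -0.32. Skp2, which marks the inhibitor p27 for degradation, measured 6.60 ± 0.15 and 5.81 ± 0.02 (difference -0.80, q = 0.104), and Ccne2, an S phase cyclin, 6.43 ± 0.07 and 5.73 ± 0.24 (difference -0.70, q = 0.141). Other genes of this list were named after their values were seen. E2f1, E2f8 and Ccne1, themselves targets of E2F, had -0.54, -0.78 and -0.54 without overlap, whereas the D cyclins Ccnd1, Ccnd2 and Ccnd3, which respond to growth factors, had 0.16, -0.06 and 0.03 with overlap. Cdk4 measured 9.64 ± 0.15 and 8.89 ± 0.10 (difference -0.75, q = 0.142). Among 20 inhibitors and p53 targets 2 were higher and 2 lower at p under 0.05 before adjustment, and the median was -0.06. The inhibitors Cdkn1a, Cdkn1b and Cdkn1c overlapped between the days, with differences of 0.12, -0.09 and -0.41. Trp53, which encodes p53, measured 9.68 ± 0.05 and 9.25 ± 0.21 (difference -0.43, q = 0.176).

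The remaining called genes act outside the cell cycle. Pcbd1, a dehydratase that recycles the tetrahydrobiopterin cofactor, had the greatest fall of the 22 and the smallest q. It measured 5.60, 5.23 and 5.55 at E16.5 and 4.06, 4.06 and 4.27 at E17.5, and fell by 1.33 (SE 0.13, q = 0.0153), with 3.91 ± 0.03 at E18.5. The E17.5 values of Pcbd1 lie near the array medians of 3.82, 3.87 and 3.85, so the size of its fall is uncertain. Ptn, a secreted heparin-binding growth factor, measured 5.35, 5.19 and 5.03 at E16.5 and 3.77, 4.05 and 4.07 at E17.5, and fell by 1.23 (SE 0.15, q = 0.0279). The lowest E17.5 value of Ptn was under its array median, so the size of that fall is uncertain. Psat1, the aminotransferase of serine synthesis, measured 5.12, 5.21 and 5.51 at E16.5 and 4.44, 4.42 and 4.18 at E17.5, and fell by 0.93 (SE 0.14, q = 0.0395). It was the only 1 of 27 amino acid stress and unfolded protein genes to pass. Bzw2 measured 7.12, 7.09 and 7.26 at E16.5 and 6.34, 6.40 and 6.29 at E17.5 (fall of 0.81, q = 0.0279), and Lrrc40 measured 6.08, 6.08 and 6.12 at E16.5 and 5.34, 5.25 and 5.38 at E17.5 (fall of 0.77, q = 0.0313). At E18.5 the means of Ptn and Psat1 were 4.39 ± 0.25 and 4.34 ± 0.11.

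Cholesterol synthesis held 1 called gene and a run of others of like direction. Cyp51, lanosterol demethylase, measured 5.98, 6.48 and 6.48 at E16.5 and 5.28, 4.80 and 4.92 at E17.5, and fell by 1.31 (SE 0.20, q = 0.0454). Its E18.5 samples measured 5.48, 5.70 and 5.13, of which the last lay within the range of E17.5 and the others above it. Of 31 tested list members 15 were lower and 1 higher at p under 0.05 before adjustment, and the median was -0.38. Msmo1, a later enzyme of the sterol branch, measured 5.92 ± 0.27, 4.78 ± 0.53 and 5.69 ± 0.26 on the 3 days in order (E17.5 minus E16.5 -1.14, q = 0.106). Hmgcs1, which starts the pathway, measured 7.44 ± 0.23, 6.65 ± 0.34 and 7.08 ± 0.00, and Soat1, which esterifies cholesterol, 6.37 ± 0.09, 5.83 ± 0.06 and 6.48 ± 0.18, both at q = 0.106 for the first step. These genes did not overlap between E16.5 and E17.5. Msmo1, Hmgcs1 and Soat1 had been named by the study for a trough at E17.5 on these same arrays. They were thus selected for this pattern, and their values are a description only.

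Other sterol genes, named after their values were seen, were not uniform. Fdft1, Dhcr7, Hsd17b7 and Sqle had differences of -0.80, -0.80, -0.74 and -0.68 without overlap, at q values of 0.106, 0.0829, 0.103 and 0.146. Idi1 and Fdps had 0.24 and 0.03 and lay close to the array median. Srebf2, the transcription factor of the pathway, measured 7.55 ± 0.09 and 7.57 ± 0.08. Abca1, a cholesterol exporter, had 0.32 (q = 0.319).

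Broader housekeeping groups had negative medians but no called member. The proteasome had 0 higher and 11 lower of 28 subunits at p under 0.05 before adjustment (median -0.27), oxidative phosphorylation 0 and 16 of 41 (median -0.34), ribosome biogenesis 0 and 8 of 30 (median -0.31) and splicing factors 1 and 6 of 38 (median -0.18). Psma4 and Psma1, subunits of the proteasome core, measured 7.89 ± 0.15 and 6.83 ± 0.22 at E16.5, 7.24 ± 0.17 and 6.31 ± 0.03 at E17.5, and 7.34 ± 0.06 and 6.17 ± 0.14 at E18.5. Their E17.5 minus E16.5 differences were -0.65 (q = 0.0951) and -0.52 (q = 0.142). Ube2c, a ubiquitin carrier for the mitotic ligase, and Usp11, a deubiquitinase, had -0.76 (q = 0.104) and -0.60 (q = 0.0804). Psma4, Psma1, Ube2c and Usp11 had been named by the study for an abrupt drop after E16.5 on these same arrays. They were thus selected for this step, and their values are a description only. Dkc1, the pseudouridine synthase of ribosomal RNA, had -0.88 (q = 0.0947), and Sdhc and Atp5pb, subunits of respiratory complexes, -0.61 (q = 0.17) and -0.54 (q = 0.148). Among mitochondrial chaperones Hspd1 had -0.60 (q = 0.113) and Hspe1 -0.46 (q = 0.191).

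**Figure D3:**
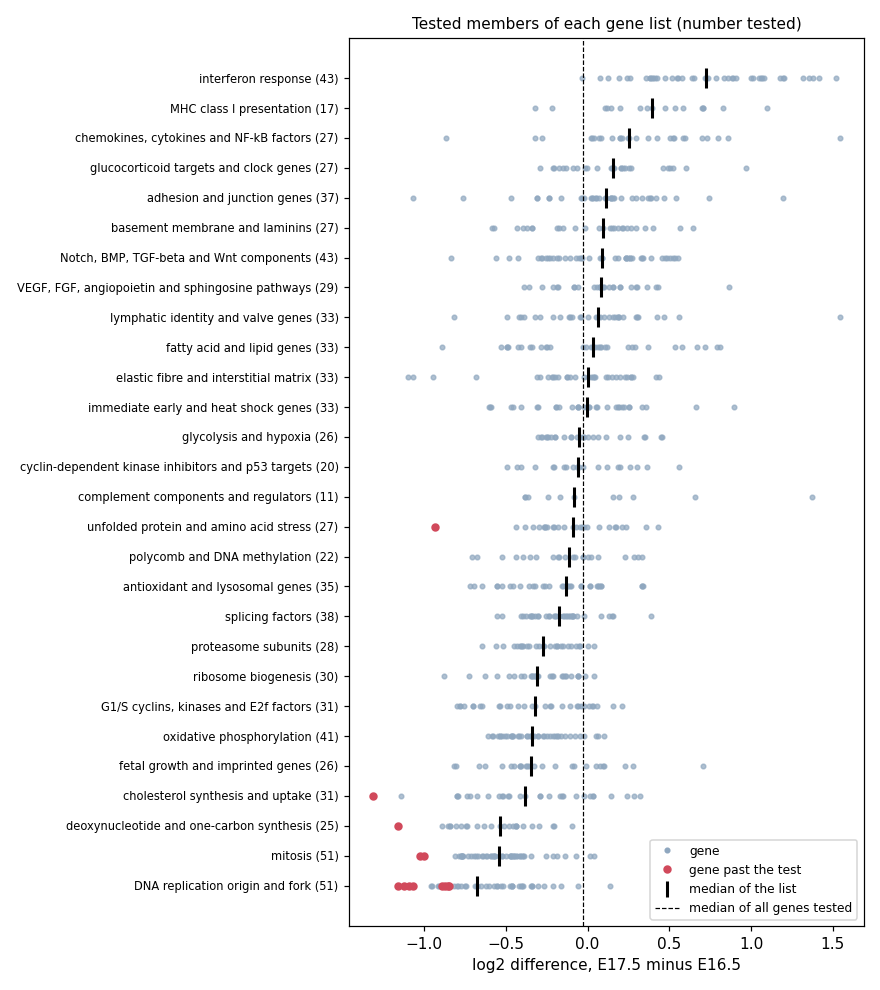
Log2 difference E17.5 minus E16.5 of each tested member of the 28 process lists, with the number tested in parentheses, a bar at the median of the list, a dashed line at the median of all tested genes (-0.03) and red points for called genes. The lists run from the interferon response at 0.72 to DNA replication at -0.68, and red points occur in 5 lists, all to the left of 0.

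Alveolar type II, airway and leukocyte markers were also lower on average at E17.5, and their part in the falls above was not tested. Epcam, the epithelial surface protein used to exclude epithelium, measured 4.71, 6.07 and 5.89 at E16.5 and 4.72, 5.06 and 4.56 at E17.5. E16.5 replicate 1 was thus as low as the E17.5 samples. It also lay within the E17.5 range for Sftpc, the surfactant protein of alveolar type II cells, at 9.28, 10.77 and 11.17 against 9.80, 9.73 and 9.07, and for Cdh1, the epithelial cadherin, at 5.79, 6.84 and 7.26 against 5.99, 5.71 and 4.93. Of 10 alveolar type II markers 3 were lower and 0 higher at p under 0.05 before adjustment (median -0.62), and of 9 airway and general epithelial markers 3 and 0 (median -0.65). The summed signal of the 11 matched type II markers, tested or not, was 1020 to 3092 at E16.5 and 887 to 1471 at E17.5. That of the 12 matched airway markers was 376 to 771 and 260 to 519. The 14 alveolar type I markers did not share this direction, with 4 higher and 1 lower at p under 0.05 before adjustment (median 0.19). The 8 tested leukocyte markers all had negative differences (median -0.34), with 0 at p under 0.05 before adjustment. The summed signal of all 14 matched leukocyte markers, tested or not, was 280 to 571 at E16.5 and 292 to 298 at E17.5.

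Interferon-stimulated genes had higher means at E17.5 in nearly all members, but 0 of them passed the FDR threshold. Of 48 list members 5 were under the array median on all 6 arrays, and of the 43 tested 42 had a positive difference, 24 were higher and 0 lower at p under 0.05 before adjustment, and 22 did not overlap. Against this stand 5.5% and 8.17% of all tested genes. Many list members, such as Usp18, Sp100 and Oasl2, had been reported by the study as higher at E18.5 than on these same E16.5 arrays. The list is thus not independent of the E16.5 values, and these counts are a description only. The median difference was 0.72, and the mean log2 level of the list was 5.42 to 5.65 in E16.5 samples, 5.76 to 6.59 in E17.5 samples and 6.99 to 7.25 in E18.5 samples. The smallest q was 0.099.

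The E17.5 samples differed among themselves for this list. E17.5 replicate 2 was the lowest E17.5 sample in 35 of the 43 genes, and replicate 1 the highest in 30. Over all tested genes replicate 2 was lowest in 5179 of 13741. The gap was not confined to interferon genes. Replicate 2 was the lowest E17.5 sample in 25 of 37 adhesion genes, but the highest in 29 of 41 oxidative phosphorylation genes. Without E17.5 replicate 2 the median of the interferon list was 0.96 with 32 genes higher at p under 0.05 before adjustment. Without E17.5 replicate 1 it was 0.52 with 18. E17.5 replicate 2 was also the sample with the lowest Prox1 and the array with the lowest quality weight. Its weight was 0.687, against 1.19 and 1.68 for E17.5 replicates 1 and 3, and 0.699 for E18.5 replicate 3. The part of Prox1 level or of array quality in the interferon values was not tested.

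Parp14, an ADP-ribosyltransferase induced by interferon, had the smallest q of the list and measured 6.57, 6.73 and 6.32 at E16.5 and 8.08, 7.27 and 7.85 at E17.5 (difference 1.19, SE 0.24, q = 0.099). Xaf1, a proapoptotic interferon target, measured 5.72, 5.33 and 5.22 at E16.5 and 7.01, 6.25 and 7.25 at E17.5 (difference 1.41, SE 0.30, q = 0.104). In both, all E17.5 samples were above all E16.5 samples, with replicate 2 the lowest of the E17.5 samples. Trim21, an antibody receptor and ubiquitin ligase that interferon also induces, measured 4.87, 5.01 and 4.75 at E16.5 and 5.81, 5.78 and 5.61 at E17.5 (difference 0.86, SE 0.15, q = 0.0779), with no such gap at replicate 2.

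Further interferon genes are named here after their values were seen. Oasl2, of the oligoadenylate synthetase family, measured 5.07, 5.01 and 4.38 at E16.5 and 6.90, 5.33 and 6.80 at E17.5 (difference 1.52, SE 0.37, q = 0.125). Irf7, the factor that amplifies interferon production, measured 4.87, 4.42 and 4.42 at E16.5 and 6.10, 5.40 and 6.28 at E17.5 (2.56-fold, SE 0.31 in log2, q = 0.106). The signal carriers Stat2 and Irf9 had smaller differences of 0.47 (q = 0.335) and 0.26 (q = 0.544) with overlap. Ifih1, the cytosolic sensor of double-stranded RNA, had 1.06 (q = 0.129), the guanylate-binding proteins Gbp2 and Gbp3 had 1.01 (q = 0.106) and 0.91 (q = 0.14), Lgals3bp had 1.18 (q = 0.105) and Sp100, a nuclear body protein, 1.31 (q = 0.112), all without overlap.

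The members that overlapped or lay near background show where the pattern was thin. Ifi44 measured 5.96, 5.86 and 5.22 at E16.5 and 7.92, 5.66 and 7.60 at E17.5, and Usp18, the protease that removes Isg15 from proteins, 4.03, 3.62 and 4.15 against 5.63, 3.57 and 5.27. In both genes E17.5 replicate 2 lay within the E16.5 range while the other E17.5 samples were above it. Isg15 was not tested, with 2.57, 2.75 and 2.29 at E16.5 and 2.83, 2.72 and 2.96 at E17.5, all under the array median, and it stood at 4.48 ± 0.60 at E18.5. Ifit1 was under the median in all E16.5 samples, at 3.08, 3.35 and 3.36, and just above it at E17.5, at 4.32, 3.97 and 4.15, so its fold change is uncertain. Socs1, a feedback inhibitor, had the 1 negative difference of the list, -0.03 (95% interval -0.38 to 0.31).

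The interferon-stimulated response element was searched on both strands as GAAA followed by any 2 bases and a second GAAA. It stood in 13 of 43 promoters (30.2%) of 34 tested interferon list genes, against 2.98% of all promoters and 2.52% of those of tested genes. Isg15 was not tested, so its promoter is not among these 43. Promoters of Ifit1 (chr19:34640639-34640888, plus strand), Isg15 (chr4:156200819-156201068, minus strand) and Gbp2 (chr3:142620413-142620662, plus strand) are shown because they carry the element, with it and, in Gbp2, TTTGAA in capitals, each on either strand. The 3 matches of Isg15 overlap each other in a single run. Of these genes, Gbp2 was well above the median on both days and measured 6.51 ± 0.23 and 7.52 ± 0.19.
Ifit1: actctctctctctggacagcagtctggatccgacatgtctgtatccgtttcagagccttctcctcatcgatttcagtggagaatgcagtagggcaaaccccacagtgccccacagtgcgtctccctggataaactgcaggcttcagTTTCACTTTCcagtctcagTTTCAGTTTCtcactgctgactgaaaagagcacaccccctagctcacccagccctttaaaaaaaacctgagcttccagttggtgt
Isg15: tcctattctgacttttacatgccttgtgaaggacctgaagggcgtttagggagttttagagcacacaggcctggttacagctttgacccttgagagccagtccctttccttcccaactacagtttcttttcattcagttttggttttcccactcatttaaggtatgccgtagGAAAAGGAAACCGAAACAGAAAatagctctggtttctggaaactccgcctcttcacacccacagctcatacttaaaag
Gbp2: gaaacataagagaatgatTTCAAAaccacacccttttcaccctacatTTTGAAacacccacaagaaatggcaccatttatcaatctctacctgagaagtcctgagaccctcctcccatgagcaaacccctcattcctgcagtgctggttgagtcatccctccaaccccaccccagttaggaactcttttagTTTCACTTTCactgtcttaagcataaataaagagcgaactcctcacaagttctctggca

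**Figure D4:**
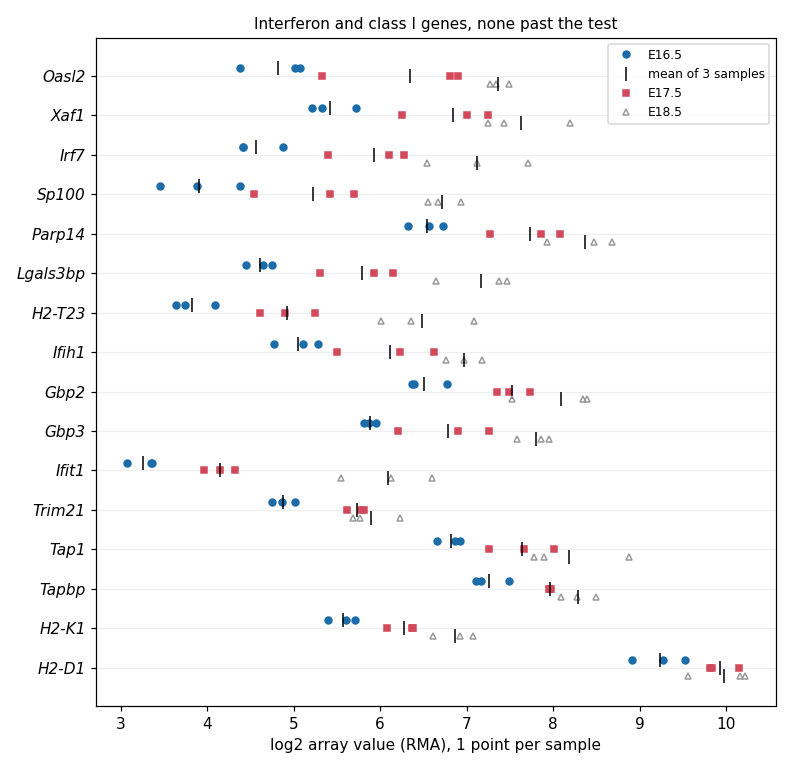
Log2 expression of 16 interferon and class I genes, chosen after their values were seen from those without overlap between E16.5 and E17.5, with 1 point per sample of each day (circles E16.5, squares E17.5, open triangles E18.5, n = 3 per day) and a bar at the mean. The E17.5 squares lie right of all E16.5 circles in every row by this choice, with the lowest square of Oasl2 at 5.33 near its E16.5 range and the squares of Tapbp close together at 7.95 to 7.97, and none passed the test.

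Genes that load peptides on MHC class I molecules also had a positive median. Some of them, such as Tap1, Tap2 and Tapbp, had been reported by the study as rising with day on these same arrays. Their list is thus not independent of these values. Of 17 tested 8 were higher and 1 lower at p under 0.05 before adjustment, 0 were called, and the median was 0.39. Tapbp, which bridges class I molecules to the peptide transporter, measured 7.49, 7.11 and 7.17 at E16.5 and 7.97, 7.95 and 7.97 at E17.5 (difference 0.71, SE 0.14, q = 0.0951). H2-K1, a classical class I heavy chain, measured 5.71, 5.40 and 5.61 at E16.5 and 6.38, 6.08 and 6.37 at E17.5 (difference 0.71, SE 0.15, q = 0.104). Class I heavy chains share much sequence, so signal assigned to 1 of them may come in part from another.

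Named after their values were seen, H2-T23, H2-D1 and Tap1 had differences of 1.09 (q = 0.127), 0.70 (q = 0.192) and 0.83 (q = 0.222) without overlap. The light chain B2m, at 11.18 ± 0.16 and 11.38 ± 0.31, the immunoproteasome subunits Psmb8 and Psmb9, with 0.47 and 0.39, and the chaperones Pdia3 and Calr, with -0.32 and -0.22, behaved otherwise: the first 3 overlapped and the last 2 were lower in every E17.5 sample. Nlrc5, the transactivator of class I genes, was under the array median on all 6 arrays.

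The 10 genes with the largest moderated t for a higher level at E17.5 and no overlap had q values from 0.0557 to 0.099, and of these Trim21, Tapbp and Parp14 are given above. Gm5476, a predicted gene, came closest at 3.67, 3.36 and 3.25 at E16.5 against 4.29, 4.20 and 4.22 at E17.5 (difference 0.82, q = 0.0557), but all its E16.5 values were under the array median. Fgf1, a fibroblast growth factor, measured 5.21, 5.62 and 5.16 against 6.28, 5.98 and 6.31 (difference 0.86, SE 0.16, q = 0.0829). Neither overlapped between the days.

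Car4, a carbonic anhydrase and marker of a type of lung capillary endothelium, had the greatest positive difference of all tested genes. It measured 5.57, 4.18 and 4.66 at E16.5 and 7.17, 6.14 and 7.09 at E17.5 (difference 2.00, SE 0.38, 95% interval 1.16 to 2.84, q = 0.0863), and 8.42 ± 0.38 at E18.5. The spread within E16.5 was wide, from 4.18 to 5.57, yet no sample overlapped with E17.5. Of the 16 tested blood endothelial markers 2 were higher and 0 lower at p under 0.05 before adjustment, with a median of 0.09. The summed signal of all 17 matched blood endothelial markers was 5253 to 6745 at E16.5 and 6262 to 6693 at E17.5. Apln, the apelin ligand of capillary tip cells, measured 6.61 ± 0.53 and 7.53 ± 0.29 (difference 0.92, q = 0.24) with overlap, and Plvap and Vwf, named after their values were seen, had -0.09 and 0.07.

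Of the same 10 genes, Plat, the tissue plasminogen activator, measured 7.12, 6.94 and 7.19 at E16.5 and 7.63, 7.60 and 7.77 at E17.5 (difference 0.59, SE 0.12, q = 0.0968). At E18.5 Plat stood at 7.76 ± 0.13. Dennd3, a regulator of Rab proteins, measured 7.44 ± 0.10 and 8.08 ± 0.04 (difference 0.64, q = 0.0884). Named after their values were seen, Tbx3, a T-box factor, Prx, the scaffold protein periaxin, Rapgef3, a cyclic AMP sensor of endothelial junctions, and Nuak2, a kinase, had 0.79 (q = 0.0993), 1.15 (q = 0.104), 0.82 (q = 0.137) and 0.89 (q = 0.112), and Rapgef3 and Nuak2 were called when the E18.5 arrays were left out of the fit (q = 0.0404 and 0.0439).

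Lymphatic identity genes gave no calls. Of 33 tested 2 were higher and 1 lower at p under 0.05 before adjustment, 0 were called, and the median was 0.06. Ackr2, the chemokine-scavenging receptor of lymphatic endothelium, had the greatest difference, with 6.52, 5.61 and 5.57 at E16.5 and 7.30, 7.30 and 7.72 at E17.5 (difference 1.54, SE 0.33, q = 0.104), without overlap. Pdpn, the podoplanin gene of the sort, measured 5.76 ± 0.26 and 5.94 ± 0.23 and then 7.22 ± 0.44 at E18.5. Other identity genes, named after their values were seen, overlapped between the days, with differences of either sign: Foxc2, a valve factor, 0.18, Sox18, 0.56, Cldn5, a tight junction protein, 0.47, Reln, -0.42, and Stab2, -0.12. Mmrn1, a lymphatic matrix protein, measured 7.80, 8.27 and 7.69 at E16.5 and 7.27, 6.63 and 7.43 at E17.5 (difference -0.82, q = 0.317).

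Growth factor and vessel signaling lists had medians near 0. VEGF, FGF, angiopoietin and sphingosine genes had 2 higher and 0 lower of 29 at p under 0.05 before adjustment (median 0.08), and Notch, BMP, TGF-beta and Wnt genes 8 and 1 of 43 (median 0.09). Ephb4, the receptor of ephrin-B2 in veins and lymphatics, measured 7.41 ± 0.16 and 7.84 ± 0.14 (difference 0.42, q = 0.177). Bmp6, a BMP ligand, had 0.53 (q = 0.203) and Nkd1, a Wnt antagonist, 0.55 (q = 0.205), both without overlap. Named after their values were seen, Kdr, Vegfc, Angpt2 and S1pr1 overlapped, with differences of 0.08, -0.39, 0.29 and 0.43.

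Matrix genes gave no calls. Col4a1 and Col4a2, the type IV collagen chains of the basement membrane, lie beside each other on chromosome 8 and were both higher in every E17.5 sample, by 0.56 (q = 0.137) and 0.65 (q = 0.111). Their basement membrane list had a median of 0.09 with 3 higher and 1 lower of 27 at p under 0.05 before adjustment, and Lama4 and Nid1, named after their values were seen, had -0.02 and 0.24 with overlap. Fbn2, the fibrillin of fetal microfibrils, measured 7.07, 8.02 and 7.84 at E16.5 and 6.62, 6.86 and 6.61 at E17.5 (difference -0.95, q = 0.106). Vcan, the proteoglycan versican, had -1.10 (q = 0.22) with E16.5 replicate 1 at the level of E17.5. In the adhesion list (4 higher and 3 lower of 37, median 0.11), Cdh2, the neural cadherin, had -0.76 (q = 0.0968) and Itga3, a laminin receptor, 0.74 (q = 0.15), both without overlap. The elastic fibre list had a median of 0.01, which became -0.04 with centred arrays.

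Chemokine and NF-kB genes had 5 higher and 0 lower of 27 at p under 0.05 before adjustment (median 0.26), with Cxcl1, a chemokine for neutrophils, at 4.67 ± 0.27, 5.18 ± 0.15 and 6.73 ± 0.27 on the 3 days. Complement genes were close to background, with 11 of 21 tested, of which 5 had positive and 6 negative differences (median -0.09) and 2 were higher and 0 lower at p under 0.05 before adjustment. C7, of the membrane attack complex, was 1 of these 2 and entered the test only through E17.5 arrays. It measured 3.03, 3.06 and 2.73 at E16.5 and 5.15, 3.40 and 4.39 at E17.5, and stood at 6.90 ± 0.96 at E18.5 (E17.5 minus E16.5 1.37, q = 0.246). Glucocorticoid and clock genes had 2 higher and 0 lower of 27 (median 0.15). Hsd11b1, which regenerates active glucocorticoid, measured 6.09, 5.49 and 6.53 at E16.5 and 7.09, 7.08 and 6.84 at E17.5 (difference 0.97, q = 0.232), and Fkbp5, a glucocorticoid receptor target, 6.35 ± 0.33 and 6.86 ± 0.09 (difference 0.51, q = 0.207).

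Fetal growth and imprinted genes had 1 higher and 7 lower of 26 at p under 0.05 before adjustment (median -0.34). Grb10, an imprinted growth inhibitor, measured 9.98, 10.03 and 10.15 at E16.5 and 9.60, 9.64 and 9.56 at E17.5 (difference -0.45, SE 0.10, q = 0.106), with 9.24 ± 0.07 at E18.5. Igfbp7, an IGF-binding protein of vessels, had 0.71 (q = 0.211). Named after their values were seen, Igf2 had -0.66 without overlap and H19 and Dlk1 had -0.47 and -0.80 with overlap. Polycomb and DNA methylation genes had 2 higher and 5 lower of 22, led by Dnmt3b, the de novo methyltransferase, at 5.29 ± 0.25 and 4.58 ± 0.15 (difference -0.71, q = 0.106).

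Markers of other cells the gate could hold were measured beside these groups. Dpt, a fibroblast matrix gene, measured 5.60 ± 0.36, 7.02 ± 0.18 and 8.79 ± 0.70 on the 3 days (E17.5 minus E16.5 1.42, q = 0.106), while Dcn, another fibroblast gene, measured 5.18 ± 0.57, 4.11 ± 0.35 and 4.40 ± 0.97, and the 16 tested fibroblast genes had a median of -0.12 with 1 higher and 1 lower at p under 0.05 before adjustment. All 13 tested platelet genes had positive differences (median 0.49), 0 of them at p under 0.05 before adjustment. The summed signal of all 14 matched platelet genes was 622 to 778 at E16.5 and 791 to 1186 at E17.5. Erythroid genes varied most within a day, with the summed signal of the 9 matched genes at 486 to 2608 at E16.5 and 1297 to 2646 at E17.5. Alveolar type I genes had 4 higher and 1 lower of 14, led by Spock2 at 4.15 ± 0.13 and 4.76 ± 0.11 (difference 0.61, q = 0.104), and the summed signal of the list was 3704 to 4162 and 3237 to 4302.

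**Figure D5:**
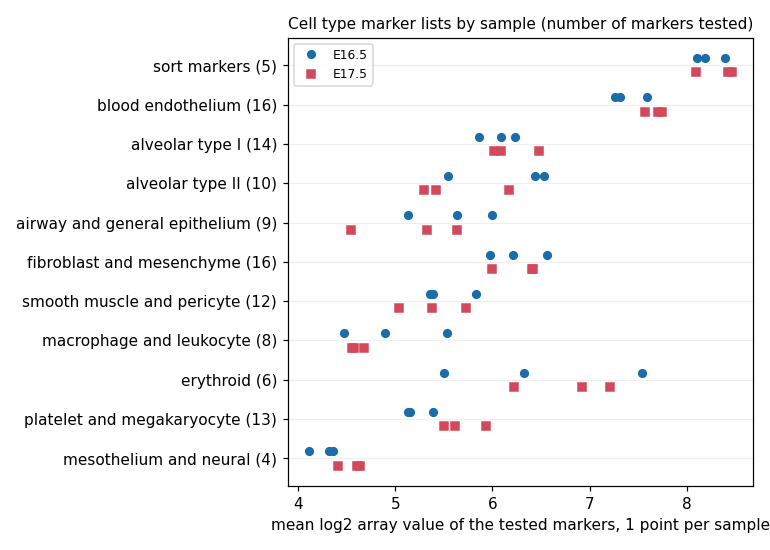
Mean log2 level of the tested markers of 11 cell type lists in each E16.5 sample (circles) and E17.5 sample (squares), with the number of markers in parentheses. The E16.5 samples spread from 5.54 to 6.54 for alveolar type II, from 4.47 to 5.53 for leukocyte and from 5.50 to 7.54 for erythroid markers, the platelet list lies at 5.13 to 5.39 at E16.5 and 5.50 to 5.93 at E17.5, and the sort markers overlap at 8.11 to 8.39 and 8.10 to 8.47.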

How the data were processed

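Sorted PLEC RNA of 9 pooled samples had been hybridised to 1 array each. The log2 values used here are gene-level RMA values as deposited, which the authors made from the array scans with affy 1.36.1 under R 2.15.1 and an Entrez Gene probe set map (quantile normalization over the 9 arrays). Quantile normalization equalizes the arrays, so a shift shared by most genes would not be seen. Scanner files were not used. Entrez identifiers were named through RefSeq for 23740 of 25206 genes, and 574 tested genes had no symbol.

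A gene entered the comparison if it exceeded the median of its array on 1 or more of the 6 E16.5 and E17.5 arrays. The model was limma's (version 3.58.1 in R 4.3.3, lmFit with the mean of each of 3 days on 9 arrays, eBayes on all genes, contrast E17.5 minus E16.5, 6 residual degrees of freedom). FDR q values were adjusted after Benjamini and Hochberg across these 13741 genes, with q under 0.05 as the call. The script for the fit was tested on simulated data. Groups followed the sample labels. The number of arrays limits the precision, and labels name no batch.

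The 40 gene lists (28 of processes and 12 of cell markers, 1020 of 1036 symbols matched) were written by hand. Lists and rules were chosen with earlier results of these data known. Members of several lists had been reported by the study as changed across these same arrays, so list counts are not independent of them. Named genes are the 15 largest called changes in each direction, or the 10 largest moderated t without overlap where fewer were called, up to 4 genes per list, markers of the sort and 7 genes that the study names at E17.5. The other 7 called genes and further genes were named after their values were seen, as stated beside them. Some genes that the rules name are not reported here. Alternatives were other filters, scalings, eBayes settings, array weights, the 6 arrays alone, a replicate block and each sample left out.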

Additional observations from a re-analysis of the deposited data

How the results depend on the processing

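All 22 called genes kept their direction under every alternative run, but the number of calls moved. It was 1 with no filter on low values, 49 with arrays centred on their median, 12 after a second quantile normalization, 9 with the trend and robust settings of eBayes, and 39 higher and 111 lower genes, 150 in all, with array quality weights. The weights ran from 0.687 for E17.5 replicate 2 to 1.68 for E17.5 replicate 3. The 6 arrays alone gave 2 higher and 28 lower genes. Leaving out 1 sample gave 0 to 34 calls, with 0 to 34 lower and 0 to 5 higher. Without E16.5 replicate 1, 2 or 3 there were 3, 1 and 0 calls, and without E17.5 replicate 1, 2 or 3 there were 1, 0 and 0. Without E18.5 replicate 1, 2 or 3, 16, 22 and 16 of the 22 remained. Genes higher at p under 0.05 before adjustment numbered 1290 with no filter and 496 to 887 with 1 sample left out. With the replicate number as a block, 0 genes were called (smallest q 0.093). Same-numbered E16.5 and E17.5 samples correlated at -0.26, -0.366 and -0.164 in their deviations from the day means. Same-numbered pairs with an E18.5 sample correlated at -0.139 to 0.3. Whether the numbers mark samples handled together cannot be told from these correlations. The interferon list kept a positive median (0.52 to 0.96) and the replication list a negative one (-0.73 to -0.62) under every alternative. With 3 pooled samples per day and a median SE of 0.16, smaller changes were not detectable here. Apart from fewer samples or more genes tested, the cause of these shifts was not tested.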
